A study of Homo sapiens with 6 samples.

Results

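The cytosolic ribosomal proteins are the protein parts of the ribosome that works outside the mitochondria. Member genes were taken by symbol, as RPL or RPS followed by a number with an optional A, X or L, together with RPLP0, RPLP1, RPLP2 and RPSA, and without pseudogenes, Y-linked genes and the RPS6K kinases. Of 81 human genes with such symbols, 72 had a probe that the annotation table names, 26 of the small and 46 of the large ribosomal subunit, with 117 probes among them. The whole table held 48803 probes, of which 27578 carried 1 gene symbol, for 18678 genes in all. The other genes of the rule were not analysed here.

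The mRNA of human embryonic stem cells (ESC) and of neural stem cells (NSC) grown from them was measured on 6 Illumina Human-6 arrays. Each of the lines H1, HSF1 and HSF6 gave 1 ESC array and 1 NSC array, so that the replicates of a stage are 3 lines and not repeat cultures of a line. H1 was grown without feeder cells at Rutgers, where attached cells were taken through a neural induction medium and then kept with bFGF to give NSC. The HSF lines were grown and differentiated at UCLA by an earlier protocol that is not detailed in the sources used here, so line, place and protocol cannot be told apart, and duplications on chromosomes 12 and 17 of H1 were seen in preliminary work. No transgene, engineered allele or drug treatment is named for any sample.

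A ribosome joins a small subunit, which reads the mRNA, to a large subunit, which forms the peptide bond, and each subunit holds ribosomal RNA and a fixed set of proteins at about equal number. The mRNAs of these proteins are among the most abundant in dividing cells. Most of them begin with a 5′ terminal oligopyrimidine tract (TOP), an unbroken run of C and T at the transcription start, through which mTOR and LARP1 set their translation. Several of the proteins have tasks away from the ribosome, and RPL5 and RPL11 in particular hold MDM2 when ribosome assembly fails and so stabilise p53. Pluripotent stem cells are known for active ribosome production.

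The letters around the start site are shown for members on which the results below turn, because most mRNAs of the ribosomal proteins begin with a TOP tract. Each window runs from 10 bases before to 20 bases from the annotated start, in RefSeq annotation of GRCh38.p14, on the strand of the gene, and capitals mark the longest run of C and T.
RPS23 (chr5:82278335-82278364, minus strand): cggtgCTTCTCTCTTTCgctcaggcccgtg
RPS24 (chr10:78033853-78033882, plus strand): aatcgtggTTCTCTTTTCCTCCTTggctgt
RPS7 (chr2:3575250-3575279, plus strand): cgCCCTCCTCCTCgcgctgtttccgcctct
RPS21 (chr20:62387093-62387122, plus strand): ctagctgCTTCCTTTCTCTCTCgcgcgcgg
RPL29 (chr3:51995876-51995905, minus strand): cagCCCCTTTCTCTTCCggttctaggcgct
RPL34 (chr4:108620566-108620595, plus strand): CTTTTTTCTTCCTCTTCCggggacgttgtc
RPL22 (chr1:6199576-6199605, minus strand): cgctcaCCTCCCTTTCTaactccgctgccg
RPL39 (chrX:119791611-119791640, minus strand): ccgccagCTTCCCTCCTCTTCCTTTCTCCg
RPL10L (chr14:46651762-46651791, minus strand): gtagttaagagagcgcaTTTTgacttcgag
RPS27L (chr15:63157458-63157487, minus strand): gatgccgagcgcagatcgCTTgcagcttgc

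A run of 8 or more C or T letters, searched on the strand of the gene only, lay in the window of 49 of 60 member genes (81.7%). These 60 are the members for which a start sequence was at hand, and the other members were not examined for it. Over all genes with a start sequence the same run was found in 4215 of 27305 (15.4%). Where a gene had several annotated starts, the longest run was counted, and by start the shares were 70.4% of 71 member starts and 12.7% of 35116 starts in all. RPS23, RPS7 and RPL22 carried runs of 12, 11 and 11 letters, and the run of RPL39 reached 22. The longest runs in RPL10L and RPS27L, both paralogs of another member, were 4 and 3 letters. A match describes the letters alone.

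Values are the signals deposited for each probe, on a linear scale, already quantile normalized across the 6 arrays. All arrays therefore share 1 distribution of signals, with a highest value of 52384, and a change common to most bright probes would not appear in full. A probe was taken as above background where its signal exceeded 145, and it was tested where this held on all 3 arrays of a stage, which left 17402 probes. Stages were compared by limma on the log2 scale of the background-corrected signal plus 16. A difference is named as called where it reached 1.5-fold with a p-value under 0.05 after Benjamini-Hochberg adjustment over all these probes. Log2 differences below are NSC minus ESC on that scale, with the standard error (SE) of the fit, and folds are taken on it from the means of 3 arrays a stage. As the arrays measured bulk RNA, fewer cells of a type and less RNA per cell cannot be told apart.

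Markers of the stages were checked before the members. Of 6 tested ESC markers, 5 were called higher in ESC, and POU5F1, NANOG and ZFP42 were below the background limit on all NSC arrays. NANOG was below it in HSF1 ESC too (124, beside 888 in HSF6 ESC and 1943 in H1 ESC) and was therefore not tested. Of 5 tested neural stem cell markers, 4 were called higher in NSC, while SOX1 was below the limit on all 6 arrays. NES was not called, and in H1 it was lower in NSC (886) than in ESC (1213). HES5 gave 4115 and 1339 in NSC of HSF1 and HSF6, and the brightest PAX6 probe gave 591 and 413. Both were below the limit in H1 NSC (135 and 138) and were therefore not tested. All 8 fibroblast and mesenchyme markers were called higher in NSC, with a summed signal of 2466 to 5994 in ESC and of 39464 in HSF1 NSC, 70308 in HSF6 NSC and 156000 in H1 NSC. The summed signal of the 6 neuron markers was 2865 to 3268 in ESC, and it was 4086 in H1 NSC, 16397 in HSF1 NSC and 19251 in HSF6 NSC. None of 6 proliferation markers was called by limma at its brightest probe. There CCNB1, CDK1, MCM2, PCNA and TOP2A had log2 differences below 0. MKI67 ran the other way, higher in NSC in each line (log2 difference 1.20, limma adjusted p = 0.0933). A dimmer probe of CDK1 was called higher in ESC (log2 difference −1.11, adjusted p = 0.0306). The summed signal of the 6 markers was 11383 to 14708 in ESC and 7337 to 11730 in NSC. The part of these other cells in the differences below was not tested.

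By gene, ribosomal proteins were called higher in ESC about as often as all genes, and 1 was called higher in NSC. Of 117 member probes 108 were tested, for 70 genes. RPL10, which helps form the tRNA-binding face of the large subunit, and RPL3L, a muscle paralog of RPL3, had no tested probe. Of all member probes, 5 were below the limit on every array and 102 were above it on all 6 arrays. Higher signal in ESC was called for 20 member probes, against 11.8% of all tested probes (2062 of 17402), and higher signal in NSC for 1 probe, against 10.3% (1798). By gene, with each gene taken at its brightest tested probe, 10 of 70 were called higher in ESC (12.4% of 11012 genes) and 1 higher in NSC (11.4%). The share of members called higher in ESC was thus near the background by gene, and by probe it was 20 of 108. With detection on all 6 arrays required, which held for 102 member probes, 16 member probes and 8 genes were called higher in ESC. The main test, read over probes above the limit on all 6 arrays, gave these shares by mean signal. Under 500, 8 of 14 members were called higher in ESC (10.6% of all such probes), and from 500 to 1000, 2 of 7 (13.4%). From 1000 to 5000 it was 5 of 19 (12.8%), and from 5000 up 1 of 62 (4.2%). A share by gene is not given for this filter. With the arrays centred on the median of the member genes instead, 15 member probes were called higher in ESC and 5 in NSC, and over all probes 1159 and 2171.

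The count by probe depended on the arrays used, as did the count over all probes. From 20 with all arrays, leaving out an ESC array gave 12 (HSF1), 15 (HSF6) or 17 (H1), and leaving out an NSC array gave 12 (HSF1), 7 (HSF6) or 21 (H1). Without both arrays of HSF1 it was 1, without both of HSF6 it was 3, and without both of H1 it was 21. Over all probes the calls higher in ESC also fell without both arrays of HSF1 or of HSF6, as given in the last section. The fall was thus not particular to the members. Of the 21 called member probes, 8 stayed called without each array in turn. These were probes of RPS23, RPS24, RPS15, RPS7, RPL29, RPL34, RPL6 and RPL8. The RPS15 probe was tested through its ESC arrays alone, so it had to be higher there and its staying called adds nothing.

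The median log2 difference was −0.25 over the 70 genes (quartiles −0.43 and −0.08) and −0.33 over the 108 member probes, beside −0.09 over all tested probes (quartiles −0.64 and 0.56). The fitted difference was below 0 for 61 of the 70 genes (87.1%), beside 54.3% of all probes. Taken by line, HSF1 had a median over the genes of −0.29, HSF6 of −0.43 and H1 of −0.12, beside −0.09, −0.13 and −0.06 over all probes. The median over the genes was below 0 in each line. For 61 member probes the NSC signal was the lower in all 3 lines (34.7% of all probes), and for 9 it was the higher in all 3 (27.8%). The stages did not overlap, with ESC higher, in 33 member probes (25.1% of all) and, with NSC higher, in 6 (19.4%). Most members, 52 of 70 genes, differed by less than 1.5-fold, as did 8454 of the 17402 probes. Small subunit genes had a median of −0.23 with 3 called higher in ESC and 1 in NSC of 26, and large subunit genes a median of −0.30 with 7 and 0 of 44, beside 12.4% and 11.4% of all genes.

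Member probes lay high in the signal range of the arrays: they made up 0.24% of all probes, but 21 of the 100 and 61 of the 500 probes with the highest mean signal. Signal differs between probes for other reasons than RNA amount, so this gives their place in the distribution only. Their summed signal was 4.93% of the whole in HSF1 ESC, 5.17% in HSF6 ESC and 4.78% in H1 ESC. NSC of HSF1 had 4.29%, HSF6 4.08% and H1 4.34%, below ESC in each line. Of the 62 member probes with a mean signal of 5000 or more, 1 was called higher in ESC (4.5% of all probes of that range), and their median was −0.24. Of the 19 with a mean signal under 500, 12 were called higher in ESC (11.2% of all probes of that range) and none in NSC. Of these 12, the probes of RPL10L, RPL36, RPL36A and RPS15 were tested through their ESC arrays alone, so they had to be higher there and their calls add nothing to the count. Over probes above the limit on all 6 arrays, 8 of 14 members of that range were called higher in ESC, beside 10.6% of 7008 probes, with a median of −1.36. Between 500 and 1000 the calls higher in ESC were 2 of 8 (14.2% of all), and between 1000 and 5000 they were 5 of 19 (13.3%), with RPS23 called higher in NSC.

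**Figure D1:**
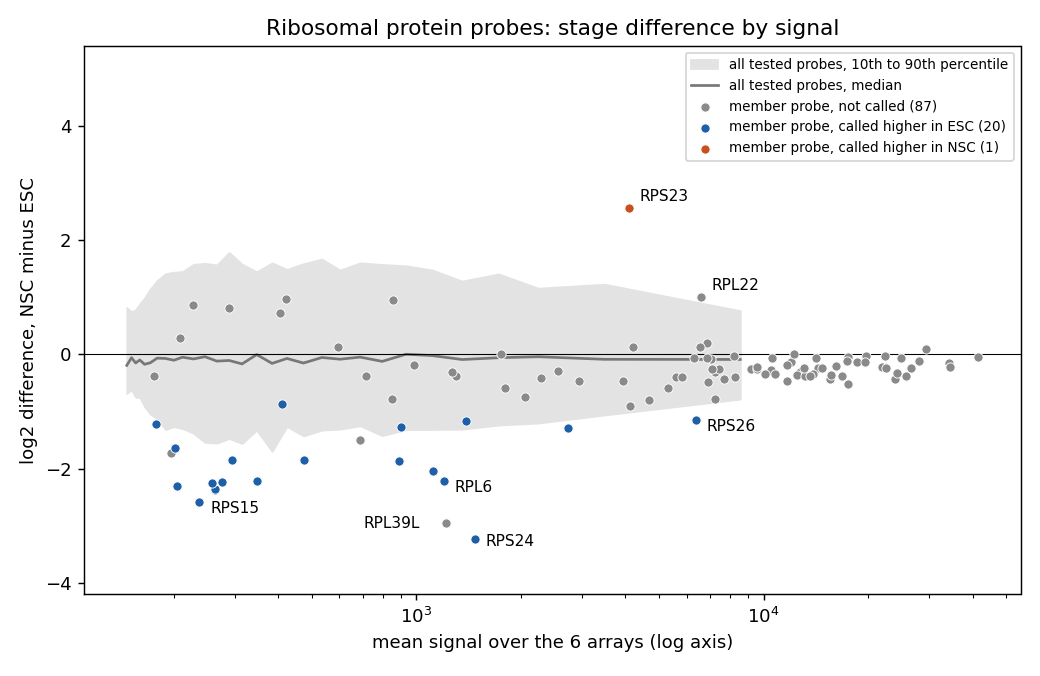
Log2 difference NSC minus ESC of each of the 108 tested member probes against its mean signal over the 6 arrays (log axis), with the median (line) and the 10th to 90th percentile (grey band) of all 17402 tested probes in bins of signal. The bright members sit just below 0, 8 of the 14 members under 500 that were above the limit on all 6 arrays are called higher in ESC (blue), and RPS23 (orange) is the only one called higher in NSC.

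RPS23 showed the largest rise in NSC. It sits at the decoding centre of the small subunit and bears on the accuracy of translation, and 1 probe measures it. Its signal was 971, 1652 and 1135 in ESC of HSF1, HSF6 and H1, and 5584, 5244 and 9982 in NSC of the same lines. The stages did not overlap, with H1 NSC the highest array. The log2 difference was 2.56 (SE 0.36, n = 3 against 3, limma adjusted p = 0.00507), a 5.89-fold higher level in NSC. It stayed called without each array in turn (limma adjusted p 0.00514 to 0.0254) but not without both arrays of HSF1 (adjusted p = 0.0721).

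Other members that were higher in NSC did not reach the threshold. RPL22, a large subunit protein that also binds viral and cellular RNAs and is needed by developing T cells, gave signals of 3728, 5511 and 3978 in ESC and of 6630, 8472 and 11292 in NSC, again in the order HSF1, HSF6 and H1. The stages did not overlap, with a log2 difference of 1.0 (SE 0.30, limma adjusted p = 0.0516), and its adjusted p was 0.0431 with an offset of 50 and 0.0429 without background correction. RPL37, which can bind MDM2, gave 370, 324 and 266 in ESC and 618, 530 and 412 in NSC. NSC was the higher in each line, and the log2 difference was 0.97 (SE 0.31, limma adjusted p = 0.0627). With the line as a block RPL37 passed (adjusted p = 0.0388), as it did without H1 NSC (0.0348) and without both H1 arrays (0.0465). RPL28, whose dim probe overlapped between stages, had a log2 difference of 0.72 (limma adjusted p = 0.241). For RPL32 the 3 probes did not point 1 way: the log2 differences were 0.81, 0.87 and −0.38 (limma adjusted p of 0.205, 0.0642 and 0.492).

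**Figure D2:**
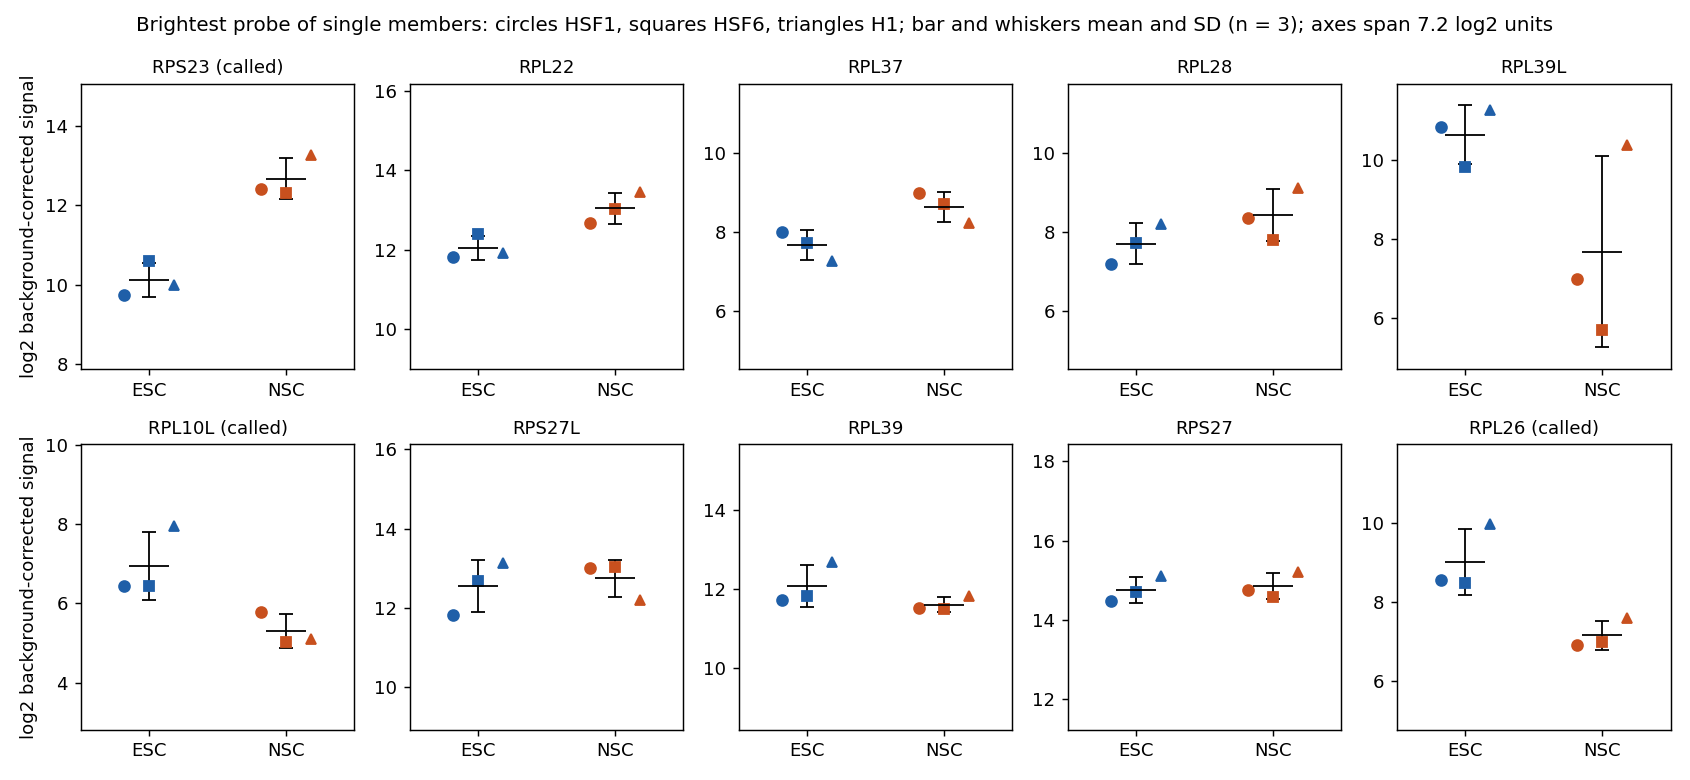
Log2 background-corrected signal of the brightest probe of 10 members in ESC (blue) and NSC (orange), with circles for HSF1, squares for HSF6 and triangles for H1, and a bar with whiskers for the mean and SD of 3 arrays. Each panel spans the same 7.2 log2 units; RPS23, RPL22 and RPL37 do not overlap between stages, and RPL39L is wide in NSC because H1 stands far above the HSF lines.

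Among small subunit members that fell in NSC, RPS24 showed the largest change, in 1 of its 2 probes. RPS24 takes part in the processing of the precursor of 18S rRNA and is mutated in Diamond-Blackfan anemia, an inherited failure of red cell production. Its second probe gave 2049, 1241 and 4525 in ESC of HSF1, HSF6 and H1 and 359, 343 and 318 in NSC. All ESC arrays were above all NSC arrays, with H1 ESC the highest. The log2 difference was −3.22 (SE 0.48, limma adjusted p = 0.00597), a 9.34-fold higher level in ESC, called without each array in turn (adjusted p 0.00752 to 0.0286). The brighter probe gave 9706, 6583 and 3268 in ESC and 5069, 3990 and 3148 in NSC. These overlapped, and the log2 difference was −0.58 (SE 0.43, adjusted p = 0.358). The annotation ties the 2 probes to different transcript records of RPS24.

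RPS7, a small subunit protein that binds MDM2 and is also mutated in Diamond-Blackfan anemia, fell in both of its probes. The brighter gave 383, 360 and 772 in ESC and 174, 182 and 210 in NSC, and the dimmer 317, 292 and 543 in ESC and 162, 165 and 168 in NSC. Neither probe overlapped between stages, and H1 ESC was the highest array in both. The log2 differences were −2.22 (SE 0.42, limma adjusted p = 0.0128) and −2.23 (SE 0.36, adjusted p = 0.00815). Without HSF6 NSC the brighter probe just missed the threshold (adjusted p = 0.0503) and the dimmer kept it.

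RPS21, a short protein of the small subunit with 1 probe here, gave 1171, 992 and 1858 in ESC and 462, 347 and 518 in NSC. The fall was present in every line, with a log2 difference of −1.87 (SE 0.35, limma adjusted p = 0.0126), and it missed the threshold without HSF6 NSC (0.0503). RPS26, which lines the channel through which mRNA leaves the ribosome, was the only member with a mean signal above 5000 that was called. Its brighter probe gave 7984, 8204 and 9876 in ESC and 4980, 4473 and 2794 in NSC. Stages did not overlap, and H1 held both the highest ESC and the lowest NSC value. The log2 difference was −1.15 (SE 0.30, limma adjusted p = 0.0337), a 2.22-fold higher level in ESC. The call was lost with the line as a block (adjusted p = 0.0544), and it was lost without each of HSF1 ESC, HSF6 ESC, H1 ESC, HSF1 NSC and HSF6 NSC (0.0526 to 0.0851), but not without H1 NSC.

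RPS15, a protein of the small subunit head, was called in its dimmest probe alone. That probe gave 285, 260 and 445 in ESC and 139, 147 and 146 in NSC, where 2 of the 3 NSC arrays lay just above the limit of 145 and HSF1 lay below it, so that the probe was tested through its ESC arrays alone. The measured log2 difference was −2.58 (SE 0.35, limma adjusted p = 0.00442). With the array below the limit set to the limit, the level in ESC was at least 5.70-fold higher. The 2 brighter RPS15 probes, with mean signals of 17365 and 7124, differed by −0.11 and −0.26 (adjusted p of 0.819 and 0.439). RPS29, a zinc-binding protein of the small subunit, had 4 tested probes. The third gave 4404, 3415 and 3710 in ESC and 1891, 1570 and 1443 in NSC, a log2 difference of −1.29 (SE 0.25, limma adjusted p = 0.0133) that missed the threshold without HSF6 NSC (0.0566). The fourth ran the other way, with 719, 642 and 492 in ESC and 904, 970 and 1402 in NSC (log2 difference 0.95, SE 0.31, adjusted p = 0.0633). The 2 brightest differed by −0.22 and −0.33 and were not called.

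Large subunit members with a called fall included RPL29 in both probes. RPL29, a protein also described at the cell surface as a heparan sulfate binding protein, gave 266, 343 and 500 in ESC and 157, 166 and 150 in NSC for its brighter probe. The dimmer gave 234, 389 and 481 in ESC and 149, 151 and 174 in NSC. Both sets were apart, with NSC close to the limit of 145 on every array. The log2 differences were −2.38 (SE 0.37, limma adjusted p = 0.00729) and −2.35 (SE 0.44, adjusted p = 0.0127), and the dimmer probe missed the threshold without HSF6 NSC (0.0507).

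RPL34, a large subunit protein, gave 1383, 1300 and 2510 in ESC and 401, 460 and 623 in NSC in its brighter probe, a log2 difference of −2.05 (SE 0.37, limma adjusted p = 0.0109) that held without each array in turn (0.00786 to 0.0449). Its other probe gave 640, 629 and 2116 in ESC and 733, 716 and 1087 in NSC, so that HSF1 and HSF6 were slightly higher in NSC and H1 was lower. That log2 difference was −0.19 (SE 0.55, adjusted p = 0.818). These probes, like those of RPS24, are tied to different transcript records.

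RPL36A, which lies near the exit site for tRNA, gave 226, 210 and 388 in ESC and 123, 121 and 159 in NSC, with only H1 NSC above the limit. RPL36A was thus tested through its ESC arrays alone. The measured log2 difference was −2.31 (SE 0.48, limma adjusted p = 0.0164), and with the arrays below the limit set to it the level in ESC was at least 3.76-fold higher. The call was lost without HSF1 NSC (0.0539) and without HSF6 NSC (0.0624). RPL26, at the rim of the tunnel for the new peptide and a regulator of p53 translation, gave 491, 472 and 1112 in ESC and 232, 238 and 304 in NSC. The stages were apart, with a log2 difference of −1.84 (SE 0.44, limma adjusted p = 0.0261), lost without HSF1 ESC (0.0529), without HSF1 NSC (0.0785) and without HSF6 NSC (0.0863). RPL31, also at the tunnel exit, gave 1428, 1292 and 966 in ESC and 640, 479 and 592 in NSC. Here H1 was the lowest ESC array, unlike in RPL26, and the log2 difference was −1.28 (SE 0.28, limma adjusted p = 0.0203). It was lost without HSF1 ESC (0.0647), without HSF6 ESC (0.0618) and without HSF6 NSC (0.0801).

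RPL21, with 1 probe, gave 531, 499 and 460 in ESC and 330, 313 and 320 in NSC, without overlap. Its log2 difference of −0.87 (SE 0.23, limma adjusted p = 0.0327) was lost with the line as a block (0.0507) and without HSF1 ESC, HSF6 ESC, HSF1 NSC or HSF6 NSC (0.0808 to 0.114).

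Probes of the same gene often gave different answers. Of 31 member genes with more than 1 tested probe, 10 had probes that differed in their call and 6 had probes that differed in sign, 15 in all with either. In 22 of the 31 the dimmest probe had the lower log2 difference, with a median of −0.47 for the dimmest and −0.26 for the brightest probes. RPL6, which can bind MDM2, had probes far apart in signal, with a mean of 41434 in the brighter. That probe gave 37071, 45276 and 44478 in ESC and 40760, 40262 and 40760 in NSC, and the second 1462, 1525 and 2736 in ESC and 420, 425 and 630 in NSC. The first overlapped between stages, with a log2 difference of −0.05 (95% interval −0.58 to 0.48), and the second was lower in NSC in each line, with a log2 difference of −2.21 (SE 0.36, limma adjusted p = 0.00825). The annotation gives both RPL6 probes the same transcript record.

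RPL8, next to the site where peptide bonds form, gave −0.36 (limma adjusted p = 0.368) in its brighter probe and −2.26 (SE 0.29, adjusted p = 0.00406) in its dimmer. The dimmer probe gave 404, 286 and 374 in ESC and 156, 157 and 172 in NSC. RPL10A, which forms the L1 stalk, gave −0.06 and −1.85 (limma adjusted p of 0.891 and 0.0291), and its dimmer probe lost the call without HSF1 ESC, H1 ESC, HSF1 NSC or HSF6 NSC (0.0509 to 0.0925). RPL36 gave −0.26 and −1.22 (limma adjusted p of 0.452 and 0.0208), with HSF1 NSC just under the limit in the dimmer probe, which was tested through its ESC arrays alone. RPL14 gave −0.47 and −1.16 (adjusted p of 0.284 and 0.0314). Both dimmer probes, of RPL36 and RPL14, lost the call without HSF1 ESC, HSF6 ESC, HSF1 NSC or HSF6 NSC, with adjusted p of 0.061 to 0.0787 for RPL36 and 0.0646 to 0.109 for RPL14. In RPS26 the dimmer probe had the larger log2 difference, −1.72, but was not called (adjusted p = 0.0544). RPL37A, RPS15A, RPS4X and RPS9 had probes of opposite sign, none called, with log2 differences from −0.26 to 0.28. Ribosomal protein genes have many processed pseudogenes, and whether a probe also detected a pseudogene transcript was not tested.

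**Figure D3:**
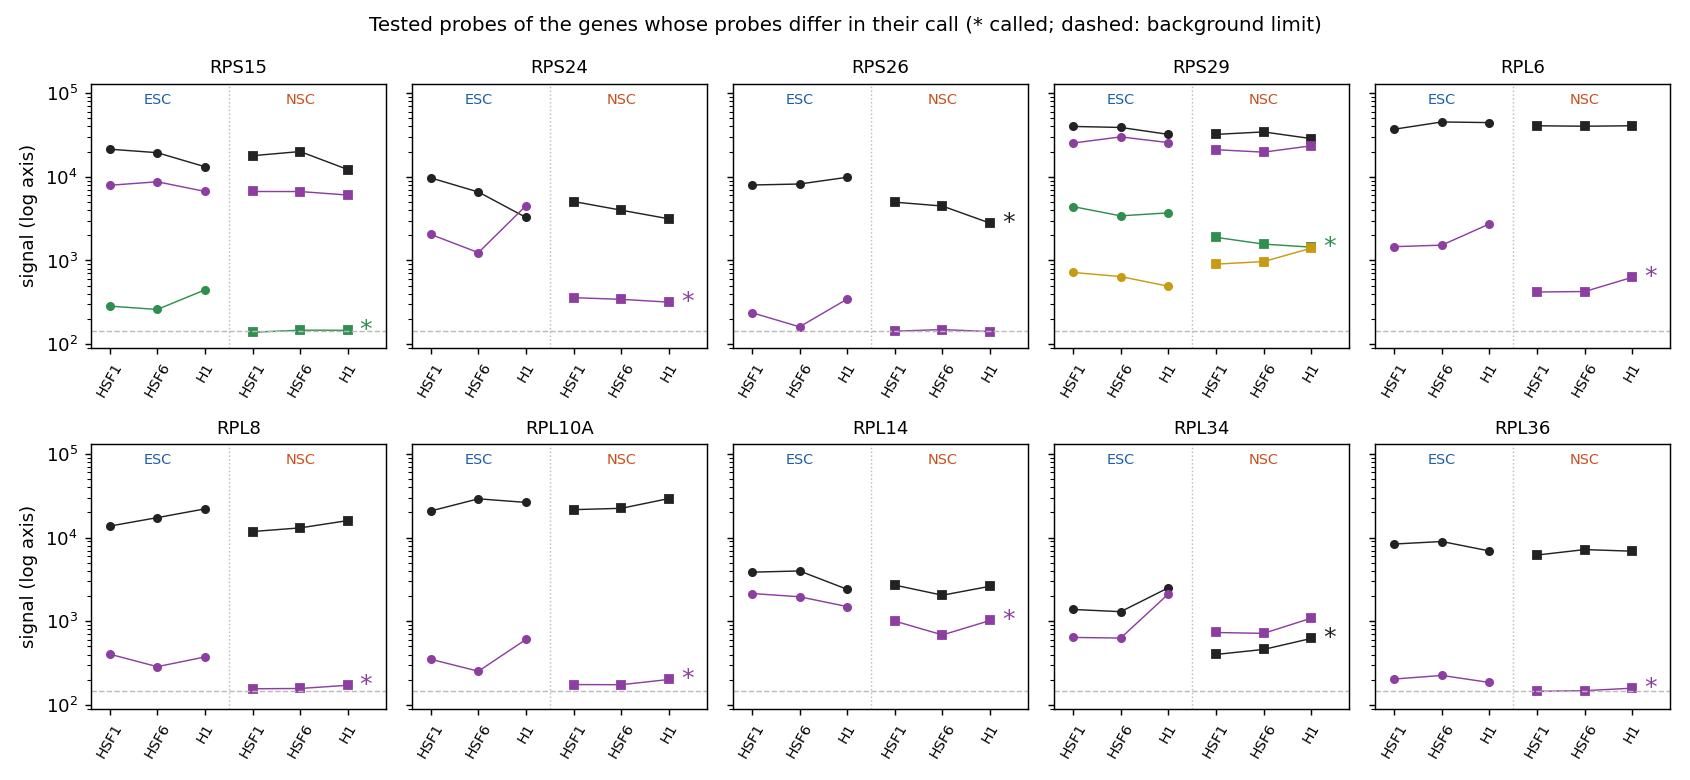
Signal (log axis) of every tested probe on the 6 arrays, for the 10 genes whose probes differ in their call, with ESC as circles on the left, NSC as squares on the right, a colour per probe from the brightest (black) down, and the background limit of 145 dashed. The called probe, marked with an asterisk, is the brightest of its gene in RPL34 and RPS26 only.

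Some members are paralogs of another member with a narrower pattern of expression. RPL39L, a paralog of RPL39 in the peptide tunnel that is known from testis, stem cells and tumors, had the widest range. Its brighter probe gave 1932, 1007 and 2541 in ESC of HSF1, HSF6 and H1, and 239, 163 and 1425 in NSC. NSC of HSF1 and HSF6 lay far below ESC, while H1 NSC lay above HSF6 ESC, so the stages overlapped. The log2 difference was −2.95 (SE 1.09, limma adjusted p = 0.0921), and the values by line were −3.84 (HSF1), −4.12 (HSF6) and −0.89 (H1). RPL39L passed with the line as a block (adjusted p = 0.0342) and without H1 NSC (log2 difference −4.29, adjusted p = 0.0036). In its dimmer probe HSF6 was below the limit in ESC, and the log2 difference was −1.51 (SE 1.67, adjusted p = 0.537). RPL39 itself differed by −0.47 (SE 0.32, limma adjusted p = 0.315).

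RPL10L, a retrotransposed copy of RPL10 that serves male germ cells, gave 199, 198 and 357 in ESC and 167, 142 and 144 in NSC. These values were near the limit of 145, and HSF6 NSC and H1 NSC were below it, so that RPL10L was tested through its ESC arrays alone. The log2 difference was −1.64 (SE 0.46, limma adjusted p = 0.0433). With the values below the limit set to it, the mean level in ESC was at least 3.0-fold higher. Taken by line, the log2 differences were −0.66 (HSF1), −1.41 (HSF6) and −2.84 (H1). The call was lost with the line as a block (0.0539) and without each of the 6 arrays in turn, that is HSF1, HSF6 or H1 in either stage (0.0615 to 0.131). RPL10, its parent, was below the limit on 5 of 6 arrays in 1 probe and on all 6 in the other, and gave no comparison.

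RPS27L, a paralog of RPS27 that p53 induces, gave 3764, 6685 and 9036 in ESC and 8296, 8545 and 4804 in NSC. HSF1 and HSF6 were higher in NSC and H1 was lower, with a log2 difference of 0.20 (SE 0.41, limma adjusted p = 0.745), which was −0.16 without HSF1 ESC and −0.28 without both HSF1 arrays. RPS27 differed by 0.09 (SE 0.29, adjusted p = 0.845). RPL3L was below the limit on all 6 arrays, and RPL3, which binds at the peptidyl transferase centre, differed by −0.20 in its brightest probe (adjusted p = 0.701). Of paralogs outside the symbol rule, RPL26L1, RPL36AL and RPL7L1 were tested and none was called, beside 12.4% of all genes higher in ESC and 11.4% in NSC. Their log2 differences were 0.19, −0.77 and 0.34 in their brightest probes (limma adjusted p of 0.719, 0.108 and 0.517). Their parents RPL26 and RPL36A were called higher in ESC, as above, and RPL7 (−0.59, adjusted p = 0.249) was not. The dimmer probe of RPL26L1 and of RPL7L1 had the opposite sign, −0.14 and −0.44, and was not called either.

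The acidic stalk of the large subunit, which recruits elongation factors, was measured through RPLP1 and RPLP2. RPLP1 gave 19239, 22229 and 20405 in ESC and 14859, 15958 and 12659 in NSC, without overlap, but its log2 difference of −0.52 (SE 0.23, limma adjusted p = 0.149) was not called. Its other probes gave −0.43 and −0.91 (adjusted p of 0.289 and 0.142). RPLP2 gave −0.22 (95% interval −1.0 to 0.55, adjusted p = 0.644). The brightest members after RPL6 were RPS29 and RPL41, the shortest of the ribosomal proteins, and their brightest probes differed by −0.22 (95% interval −0.77 to 0.33) and −0.15 (−0.76 to 0.45). RPL5 and RPL11, the partners of 5S rRNA that hold MDM2, differed by −0.13 (−0.80 to 0.54) and −0.02 (−0.56 to 0.51). A p that misses the threshold does not show that the stages were alike, and the width of the intervals, with a median SE of 0.29 over the members, sets what 3 arrays a stage can show.

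Genes around the ribosome were described from lists of related genes. Of 16 tested Diamond-Blackfan genes that are members, 4 were called higher in ESC (12.4% of all genes) and 0 in NSC (11.4%), each at its brightest probe. These were RPS7, RPS26, RPL26 and RPL31, and RPS24 and RPS29 were called at a dimmer probe only. The list had a median log2 difference of −0.39, beside −0.09 over all probes. RPS19, the gene most often mutated in that disease, differed by −0.13 (limma adjusted p = 0.789). Of the ribosome parts outside the rule, FAU, which encodes the small subunit protein RPS30, was tested and differed by −0.17 (adjusted p = 0.614). Of 16 tested translation factors and other genes whose mRNAs carry a TOP tract, 0 were called at the brightest probe by limma. Over all genes 12.4% were called higher in ESC and 11.4% in NSC. The median of this list was −0.18. EEF1A1, the elongation factor that brings tRNA to the ribosome, differed by 0.08 (adjusted p = 0.829), and NPM1, a nucleolar chaperone of ribosome assembly, by −0.78 (adjusted p = 0.0554). Dimmer probes of EEF1B2 and HNRNPA1, named after their values were seen, were called higher in ESC (log2 differences −1.46 and −1.88, adjusted p of 0.00972 and 0.0127).

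Of 9 tested genes that control ribosomal protein output, 2 were called higher in ESC at the brightest probe (12.4% of all genes) and 0 in NSC (11.4%). These were EIF4EBP2, a repressor of cap-dependent translation under mTOR (log2 difference −1.19, SE 0.28, limma adjusted p = 0.0258), and MAX, the partner of MYC (−1.10, SE 0.25, adjusted p = 0.0215). The other tested probe of MAX gave 0.27 (adjusted p = 0.481). MTOR itself differed by −0.54 (adjusted p = 0.156). MYC and MYCN, which drive transcription of ribosomal protein genes, differed by −0.52 and −1.63 at their brightest probes (adjusted p of 0.631 and 0.0517) and were called at the dimmer probes (−1.78 and −2.02, adjusted p of 0.0294 and 0.0273). TSC1, a brake on mTOR, gave 0.95 at its brightest probe and 1.08 at the dimmer (adjusted p of 0.0749 and 0.0242, only the dimmer called).

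Of 5 tested genes that carry or watch over free ribosomal proteins, 4 were called higher in ESC (12.4% of all genes) and 1 in NSC (11.4%) at the brightest probe. RRS1 and RPF2, which load RPL5, RPL11 and 5S rRNA into the large subunit precursor, fell in NSC, with log2 differences of −2.12 (SE 0.27, limma adjusted p = 0.00394) and −1.76 (SE 0.33, adjusted p = 0.0130). BCCIP, a chaperone of RPL23, fell too, with a log2 difference of −1.39 (adjusted p = 0.0140). HEATR3, which carries RPL5, gave −1.43 at its brightest probe (adjusted p = 0.0136) and 0.10 at the other (adjusted p = 0.862). CDKN1A, the cell cycle inhibitor that p53 induces, rose in NSC, from 938, 1341 and 1811 in ESC to 2867, 3166 and 2490 (log2 difference 1.18, SE 0.32, adjusted p = 0.0378). MDM2 and MDM4 were not above the limit on all arrays of either stage. As given above, summed fibroblast and neuron marker signals were also higher in NSC, and their part in these differences was not tested.

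No member was called different between H1 and the HSF lines. H1 was set against HSF1 and HSF6 with the stage as a covariate, and limma called 0 of 108 member probes and 0.0% of all 17402 (0). At an unadjusted p under 0.05 there were 31 member probes and 2840 probes in all, and the lowest adjusted p of a member was 0.184. Whether the stage difference in H1 differed from that in the HSF lines was tested as an interaction, with 0 of 108 member probes called and 0.259% of all probes (45). Here 12 member probes and 2755 in all had an unadjusted p under 0.05, and the lowest adjusted p of a member was 0.189. The H1 group holds 1 array per stage, so in the interaction its spread was taken from the HSF lines. With the stage as a covariate, both arrays of a line were fitted as independent although they share the line. The p-values of that fit therefore do not measure the spread between lines.

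Members on the chromosomes reported as duplicated in H1 were read separately, each at its brightest tested probe. On chromosome 17, RPL19, RPL23A, RPL26, RPL27 and RPL38 were higher in H1 ESC than the mean of HSF1 and HSF6 ESC and RPL23 was lower, with log2 differences of −0.80 to 1.44 and a median of 0.61. The median over 619 genes of that chromosome was 0.20, and over the 61 members on other chromosomes than 12 and 17 it was −0.19. In NSC the chromosome 17 members again had 5 of 6 higher in H1, with a median of 0.32, while all genes of the chromosome had −0.02. The 3 members on chromosome 12, RPL6, RPL41 and RPS26, were 0.12 to 0.29 higher in H1 ESC (median 0.24, beside 0.28 for 583 genes of that chromosome), and their median in NSC was −0.02 (beside −0.04). Their dimmer probes differed more in ESC, by 0.93 (RPL6), 0.77 (RPL41, not tested) and 1.56 (RPS26). In NSC those probes differed by 0.74, −0.03 and −0.16. With each gene at its brightest probe, RPL39L differed most from the HSF lines in NSC, by 4.02 on the log2 scale, and RPL7A most in ESC, by −1.97. The dimmer probe of RPL39L differed by 2.59 in ESC, where HSF6 was below the limit. These are descriptions of 1 H1 array per stage.

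**Figure D4:**
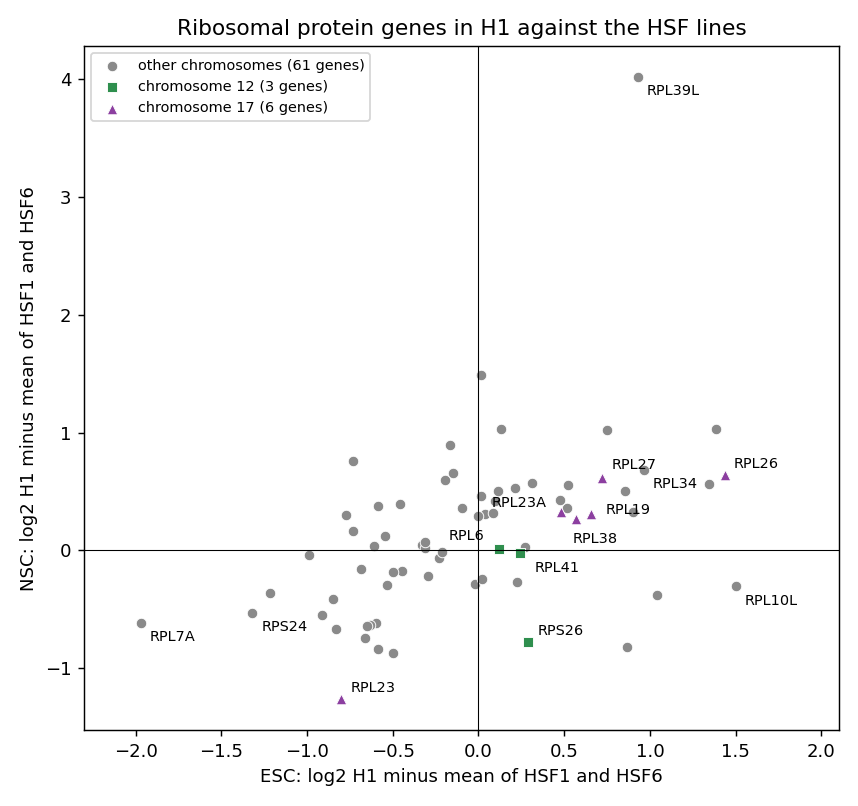
Difference on the log2 scale between H1 and the mean of the HSF lines in ESC (horizontal) and in NSC (vertical) for the brightest probe of each of the 70 tested member genes. Members on chromosome 17 (purple triangles) lie to the right of 0 except RPL23, the 3 members on chromosome 12 (green squares) lie within 0.29 of 0 in ESC, and RPL39L stands apart in NSC at 4.02.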

How the data were processed

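The deposited values were probe intensities on a linear scale that the authors made with BeadStudio per the labels' processing notes (version not given in the sources used here), and tests on the table showed them quantile normalized without background subtraction. Unnormalized signals were not used here, since their columns could not be tied to samples. Probes were named from the platform annotation, and start sites from RefSeq.

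Background was taken as the mode of signal, 127, with an SD of 11.2 below it, giving a limit of 145 (mean plus 1.64 SD). Signals were corrected by normexp, offset by 16 and log2 transformed. NSC minus ESC was fitted for 17402 probes by lmFit and eBayes of limma 3.58.1 (R 4.3.3) without covariates, and p-values were Benjamini-Hochberg adjusted over all of them. The code was tested on simulated data. A gene was taken at its brightest tested probe. Named were every called member, the 6 members with the largest difference each way, genes whose probes differ in call or sign, paralogs and their parents, the stalk, the 3 brightest and 3 dimmest members, and called list genes. Other genes named were chosen after their values were seen.

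An array of a group below the limit was set to it for folds given as "at least". Such a fold bounds the ratio of the measured stage means and not that of each line. Where 3 arrays a stage limit the precision, 95% intervals are given. The line pairs the arrays, since both come from the same cell line: deviations of ESC and NSC arrays of a line from their stage means correlated at 0.224 (HSF1), 0.103 (HSF6) and 0.172 (H1) over all tested probes and at 0.249, 0.539 and 0.513 over member probes. Replicates of a stage are lines, so p-values of the stage test measure the spread between them. Those of H1 against the HSF lines do not, since both arrays of a line were fitted as independent. Scan dates or slides were not used. Members and lists were chosen with earlier results of these data known. Whether probes also detect pseudogenes was not tested. Alternatives were another offset, no correction, no or a stricter filter, no fold threshold, the line as a block, the t-test that the study's methods name, other moderation, single arrays or lines left out, centring on the members and other ways to take a gene from its probes. Some genes of the rule are not reported here.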

Additional observations from a re-analysis of the deposited data

How the results depend on the processing

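Without background correction, with an offset of 50, with an intensity trend and robust moderation, or with the line as a replicate block, 2 member probes and 2 genes in place of 1 and 1 were called higher in NSC. The block ended the calls of RPL10L, RPL21 and RPS26 and added RPL37 and RPL39L, and it changed no other call among the named probes. Without a detection filter 6 genes were called higher in ESC. Over all probes 1125 were then called in the other direction, higher in NSC, which is no background for those genes. Member counts in this section without a count over all probes in the same direction show only how calls moved between settings. They are not a result about the members. With detection on all 6 arrays required, 1056 of all probes were called higher in NSC. The methods' t-test after Benjamini-Hochberg adjustment, which does not share spread between probes, called 5 member probes and 2 genes higher in ESC, and 892 and 608 of all probes higher in ESC and NSC. With arrays centred on the member median, whose median difference was then −0.0499, 5 member probes were called higher in NSC, 6 genes in ESC and 3 in NSC, and 1159 of all probes in ESC.

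Leaving out single arrays gave 7 to 21 member probes and 2 to 10 genes called higher in ESC, 1 to 2 of each higher in NSC, and 768 to 2076 and 763 to 2390 of all probes higher in ESC and NSC. Without both HSF1 arrays limma called 1 member probe higher in ESC, 0 in NSC and 0 genes in either direction, with 150 and 175 of all probes. Without both HSF6 arrays it called 3 member probes and 0 genes higher in ESC, with 255 and 275 of all probes. Without both H1 arrays 2 member probes and 2 genes were called higher in NSC. These fits have fewer arrays to estimate the spread. RPS27L, 0.20 with all arrays, ranged from −0.16 to 0.49 without single arrays and was −0.28 without both of HSF1. The causes of the other changes were not tested.

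Over 29 named probes and all alternatives, 389 values kept their direction and side of the threshold, 113 were no longer called, 13 became called and 2 turned in direction. Genes taken at the mean of their probes gave 13 and 1 calls, and at the dimmest probe, an alternative chosen after seeing the data, 15 and 1. The comparison of H1 with the HSF lines and its interaction with stage called 0 members also with an offset of 50, without background correction or without a filter, all chosen after seeing the data. The planned use of unnormalized signals was not run. Signals near background limit the dim probes most, and several called members lay within a few signal units of the limit in NSC.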
